A study of Mus musculus with 9 samples.

Results

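The 35 genes described here make, sense, take up, store or export cholesterol. They were chosen as a list of symbols, and the rows of the deposited counts whose symbol equals a listed one were taken: 35 of 55471 genes, all 35 of which passed the filter on low counts that left 16260 genes for testing. By role they comprise 19 genes of cholesterol synthesis, 5 that control the sterol-sensing transcription factors SREBP, 5 of uptake, transport and storage, 1 of oxysterol synthesis (*Ch25h*) and 5 of the LXR pathway and cholesterol efflux.

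Total RNA, depleted of ribosomal RNA, was sequenced from dendritic cells (DCs) grown with GM-CSF from the bone marrow of wild-type C57BL/6 mice, which the study's methods give as females of 8 to 20 weeks. One group was unstimulated. One more received LPS, bacterial endotoxin sensed by Toll-like receptors, at 100 ng/mL, and the last received IFN-β, a type I interferon, at 1000 U/mL, all at 6 h. The doses are those of the study's methods. Each group had 3 libraries, lettered A, B and C, and every group shares the GM-CSF culture, which yields a mixed population of DC-like and macrophage-like cells. The labels do not say whether the letters mark separate mice, so p-values measure only the spread between these libraries, which may be technical.

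Cells make cholesterol from acetyl-CoA through mevalonate, farnesyl diphosphate, squalene and lanosterol. When sterols are low, SCAP escorts SREBP from the endoplasmic reticulum to the Golgi, where it is cut and released to switch on the synthesis genes, and INSIG proteins hold the complex back when sterols are plentiful. Oxysterols such as 25-hydroxycholesterol restrain SREBP and activate the LXR nuclear receptors, which induce the efflux pumps ABCA1 and ABCG1 and the ubiquitin ligase MYLIP, which degrades the LDL receptor.

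Promoters of synthesis genes are known to hold CCAAT boxes, bound by the factor NF-Y, beside sterol regulatory elements, bound by SREBP. RefSeq promoter windows of GRCm38.p6, running from 250 bases before to 50 bases after a start site, were matched to 29 of the 35 genes, with none for *Fdps*, *Fdft1*, *Sqle*, *Npc1*, *Stard4* and *Abcg1*. The 250 bases before the start are shown for 6 genes, 5′ to 3′, chosen after their values were seen: 3 synthesis genes with CCAAT boxes (*Hmgcs1* at chr13:119690101-119690350, plus strand; *Mvk* at chr5:114444019-114444268, plus strand; *Mvd* at chr8:122443423-122443672, minus strand), a synthesis gene without one (*Acat2* at chr17:12960726-12960975, minus strand), a gene with CCAAT boxes that rose (*Mylip* at chr13:45389492-45389741, plus strand) and the gene that rose most (*Ch25h* at chr19:34475149-34475398, minus strand). Capitals mark the letters CCAAT on either strand, so ATTGG is a box on the opposite strand, and, in *Hmgcs1* alone, the sterol regulatory element TCACNCCAC.
*Hmgcs1*: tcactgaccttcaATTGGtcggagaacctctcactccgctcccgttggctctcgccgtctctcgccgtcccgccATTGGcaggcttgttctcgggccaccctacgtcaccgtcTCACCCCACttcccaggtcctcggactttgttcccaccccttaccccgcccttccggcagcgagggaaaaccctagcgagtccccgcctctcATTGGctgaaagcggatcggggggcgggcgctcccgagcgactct
*Mvk*: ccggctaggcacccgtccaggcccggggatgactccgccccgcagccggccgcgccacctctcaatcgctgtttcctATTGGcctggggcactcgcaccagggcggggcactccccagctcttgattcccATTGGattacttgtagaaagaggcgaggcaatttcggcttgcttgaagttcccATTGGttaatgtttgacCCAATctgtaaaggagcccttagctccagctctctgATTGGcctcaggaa
*Mvd*: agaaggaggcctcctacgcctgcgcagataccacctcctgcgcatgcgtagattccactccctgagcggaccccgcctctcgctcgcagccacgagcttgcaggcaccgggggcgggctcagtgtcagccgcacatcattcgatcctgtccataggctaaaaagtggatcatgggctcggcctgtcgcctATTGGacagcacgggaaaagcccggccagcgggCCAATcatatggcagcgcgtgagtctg
*Acat2*: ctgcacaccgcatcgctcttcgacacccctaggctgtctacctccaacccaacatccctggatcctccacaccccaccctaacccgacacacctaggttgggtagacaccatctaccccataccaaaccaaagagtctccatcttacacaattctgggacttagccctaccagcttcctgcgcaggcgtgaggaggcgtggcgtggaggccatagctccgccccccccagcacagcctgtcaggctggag
*Mylip*: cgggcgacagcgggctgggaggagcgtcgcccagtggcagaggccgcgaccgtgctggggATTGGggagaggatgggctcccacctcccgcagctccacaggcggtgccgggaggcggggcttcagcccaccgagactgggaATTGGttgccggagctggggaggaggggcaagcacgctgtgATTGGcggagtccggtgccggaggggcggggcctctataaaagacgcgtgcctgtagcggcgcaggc
*Ch25h*: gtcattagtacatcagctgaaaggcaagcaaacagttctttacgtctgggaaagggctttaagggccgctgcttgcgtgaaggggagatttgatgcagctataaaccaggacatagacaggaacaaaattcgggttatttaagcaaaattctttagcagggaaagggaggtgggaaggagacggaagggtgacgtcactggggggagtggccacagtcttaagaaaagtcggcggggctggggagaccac

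CCAAT, searched on both strands, was present in at least 1 window of 15 of the 16 synthesis genes that had one (93.8%), all but *Acat2*, and in 22 of the 29 genes in all (75.9%). Of all tested genes with a window, 42.9% held it, as did 37.4% of all 32851 windows. It was found for 4 of 5 SREBP control genes and for *Mylip*, *Npc2* and *Soat1*, and in none of the windows of *Ch25h*, *Nr1h2*, *Nr1h3*, *Abca1* and *Apoe*. The sterol regulatory element, searched only as the letters TCACNCCAC, was found in *Hmgcs1* alone, against 1.37% of tested genes. Other forms of the element were not searched, so the remaining windows may hold some. The E-box CACGTG was in 3 of 16 synthesis genes (*Hsd17b7*, *Sc5d* and *Dhcr7*) against 11.5% of tested genes, and the GC box GGGCGG in 15 of 16 against 66.2%. An LXR repeat, a pair of GGTCA with 5 bases between, was in no member and in 0.0659% of tested genes. The interferon-response letters GAAANNGAAA were in *Ebp* alone against 4.03% of tested genes, and the kappa-B letters GGGANNTTCC in none against 1.86%. These are matches of letters in 1 window type, not sites of binding, and for 4 genes (*Lbr*, *Tm7sf2*, *Msmo1* and *Nr1h3*) over 200 of the 250 bases lie inside the gene as GENCODE draws it.

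**Figure D1:**
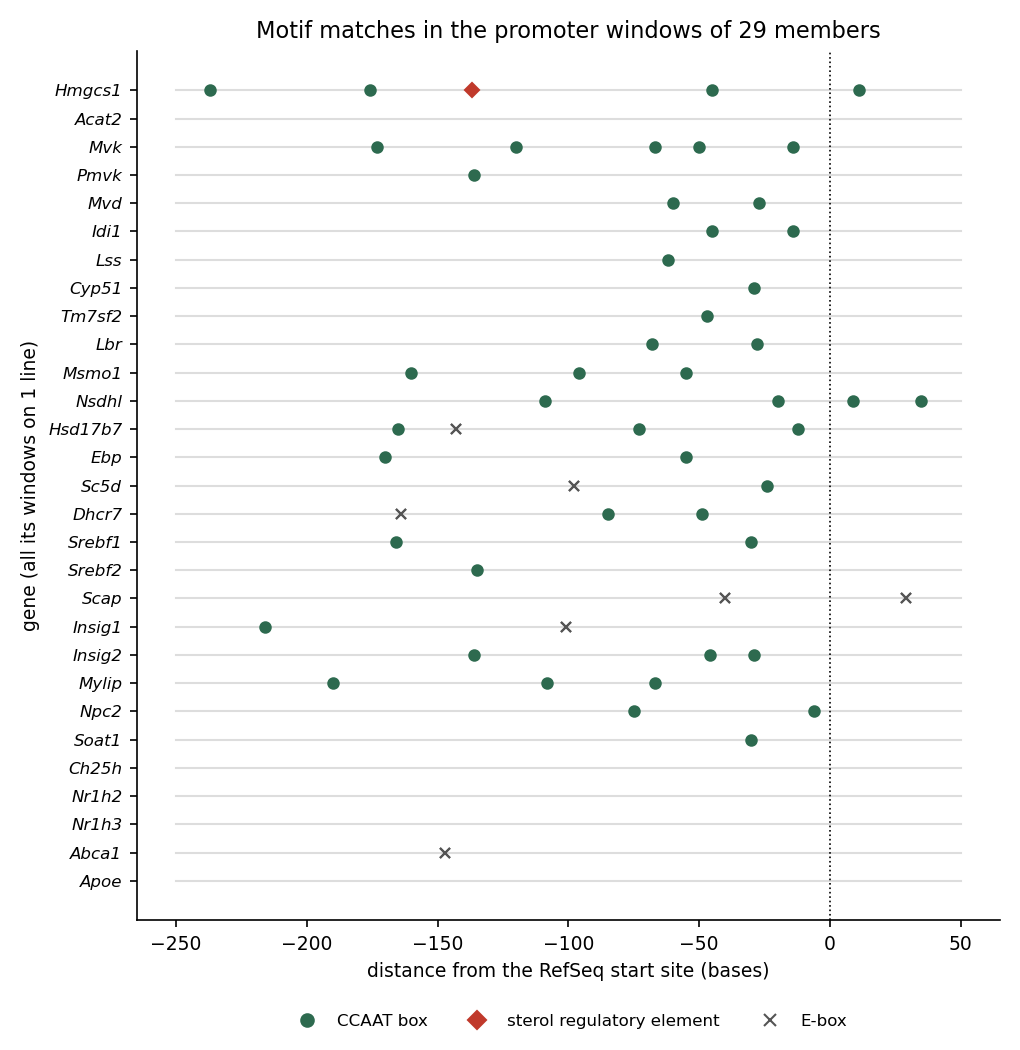
Matches of 3 motifs in the RefSeq promoter windows of 29 genes; the horizontal axis is the distance in bases from the start site (dotted line), each row is a gene with all its windows on 1 line, circles are CCAAT boxes, the diamond is the sterol regulatory element of *Hmgcs1* and crosses are E-boxes. CCAAT boxes appear in 15 of the 16 synthesis genes, and none is seen for *Ch25h* or the 4 LXR and efflux genes with a window.

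The libraries held 33425803 to 43735199 counts, and expression is given as CPM, that is, counts scaled to a common TMM-adjusted library size. DC and antigen-presentation markers (12 of 12 detected) summed to 6090 to 7340 CPM in unstimulated DCs, 8120 to 9030 after LPS and 6790 to 7220 after IFN-β. The 8 macrophage markers, all detected too, summed to 2050 to 2570, 2160 to 2790 and 2780 to 3180 CPM. The 11 neutrophil markers were low (21 to 56.9, 54.1 to 163 and 34.1 to 88.0 CPM) and highest in library A of each group. Lists for T, B, NK and mast cells summed to at most 18.2 CPM, and *Prf1*, *Hba-a2* and *Hbb-bs* were at 0 in every library. The NK list rose from 1.85 to 2 CPM to 9.53 to 16.3 after LPS and 12.6 to 18.2 after IFN-β. The T cell list rose from 0.606 to 0.925 CPM to 3.18 to 4.4 and 1.29 to 2.02. The mast cell list fell from 6.31 to 9.97 CPM to 2.34 to 4.45 after IFN-β and overlapped after LPS, and the B cell list overlapped after both. The plasmacytoid DC list rose from 108 to 186 CPM to 601 to 731 after LPS and 433 to 479 after IFN-β, while its defining gene *Siglech* had at most 1 count in any library. The LPS-induced list (6 genes) summed to 114 to 174 CPM in unstimulated DCs, 17600 to 17700 after LPS and 303 to 427 after IFN-β. The interferon-induced list (8 genes) summed to 261 to 755, 22500 to 29500 and 9260 to 11700 CPM. Both lists were higher in every stimulated library than in any unstimulated one, and both were higher after LPS than after IFN-β. Some of these sums differ between conditions alongside the member genes. The DC sums after IFN-β, the macrophage sums after LPS and the neutrophil sums after both stimuli overlap those of unstimulated libraries. Such sums hide single markers that went opposite ways. After LPS, log2 fold changes ran from -2.28 to 2.20 for macrophage, -3.31 to 3.59 for tested neutrophil and -0.67 to 1.51 for DC markers. The part of cell composition in the changes was not tested, and fewer cells of a type and less RNA per cell cannot be told apart in bulk RNA.

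LPS lowered cholesterol synthesis transcripts along nearly the whole pathway. Of the 19 synthesis genes, 17 fell (89.5%) and 0 rose, where 35.4% of all tested genes fell and 32.8% rose, and *Pmvk* and *Idi1* did not pass the threshold. The median log2 fold change of the 19 was -1.46, against -0.04 over all tested genes. In 17 genes (89.5%) the LPS and unstimulated libraries did not overlap, against 72.4% of all genes. The summed expression of the 19 genes was 813, 624 and 707 CPM in unstimulated libraries A, B and C and 321, 245 and 277 CPM after LPS. With 3 libraries against 3, an exact permutation test on a single gene cannot go below p = 0.1, so the tests quoted are those of edgeR's quasi-likelihood fit across all genes.

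IFN-β also lowered the pathway. It lowered 18 of 19 synthesis genes (94.7%) and raised 0, where 23.3% of all tested genes fell and 23.6% rose, with *Idi1* the exception. The median was -0.80, against -0.02 over all tested genes, and 18 genes did not overlap between the groups (94.7% against 58.1%). The summed expression was 467, 354 and 366 CPM, between the unstimulated and the LPS sums for every letter. Both comparisons use the same 3 unstimulated libraries. Paired by letter, the median difference of the 19 genes from unstimulated was -1.54, -1.51 and -1.45 after LPS and -0.82, -0.71 and -0.98 after IFN-β in A, B and C, on the log2(CPM + 0.5) scale. Library A was the highest of its group for 17 of 19 synthesis genes in unstimulated DCs, 12 after LPS and 18 after IFN-β.

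**Figure D2:**
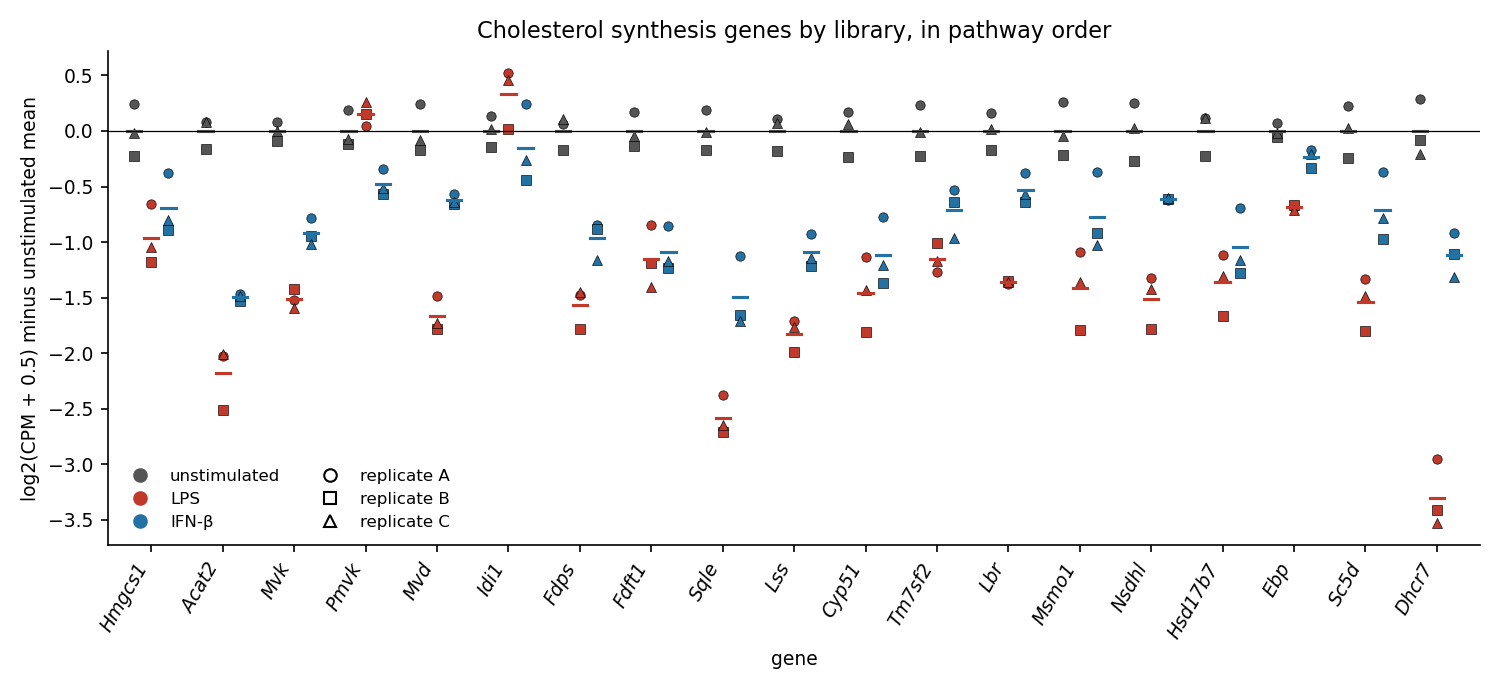
Expression of the 19 synthesis genes in pathway order, as log2(CPM + 0.5) minus the mean of the unstimulated libraries; each point is a library (circles A, squares B, triangles C), grey for unstimulated, red for LPS and blue for IFN-β, and bars are group means. Red points lie lowest for most genes, down to *Dhcr7*, while *Pmvk* and *Idi1* show no fall after LPS.

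The early, mevalonate part of the pathway held both strong falls and the genes that did not fall. *Hmgcs1*, which encodes HMG-CoA synthase, stood at 129, 93.7 and 108 CPM in unstimulated DCs, 69.3, 48.01 and 52.7 CPM after LPS and 84.01, 58.6 and 62.5 CPM after IFN-β. It fell by 0.96 ± 0.17 on the log2 scale after LPS (SE, adjusted p = 5.10e-04) and by 0.69 ± 0.17 after IFN-β (adjusted p = 0.00724), and the treated libraries did not overlap the unstimulated ones. *Acat2*, which condenses acetyl-CoA at the head of the pathway, stood at 17.7, 14.8 and 17.6 CPM in unstimulated DCs, 3.71, 2.505 and 3.75 CPM after LPS and 5.69, 5.42 and 5.63 CPM after IFN-β. Its fall was 5.04-fold after LPS and 2.99-fold after IFN-β, with log2 fold changes of -2.33 ± 0.15 (SE, adjusted p = 1.68e-07) and -1.58 ± 0.14 (SE, adjusted p = 9.8e-06). All 3 groups were separate, with IFN-β in the middle. *Mvk* (mevalonate kinase) went from 14.5 ± 0.873 CPM (SD, n = 3) to 4.75 ± 0.324 after LPS and 7.44 ± 0.664 after IFN-β, and *Mvd* (mevalonate diphosphate decarboxylase) from 43.8 ± 6.93 to 13.4 ± 1.55 and 28.1 ± 0.932. Their log2 fold changes were -1.61 and -1.71 after LPS and -0.96 and -0.64 after IFN-β, with adjusted p-values between 1.68e-07 and 0.001.

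*Pmvk*, the kinase between those 2 enzymes, took another course. Its expression was 24.8, 19.96 and 20.6 CPM in unstimulated DCs, 22.4, 24.1 and 26.1 CPM after LPS and 17.03, 14.4 and 15.02 CPM after IFN-β. The unstimulated and LPS libraries overlapped (log2 fold change 0.15 ± 0.10, 95% interval -0.074 to 0.38, adjusted p = 0.205), whereas every IFN-β library was below every other library (-0.49 ± 0.10 SE, adjusted p = 0.00295). Without unstimulated library A the LPS difference was 0.25 and passed the threshold (adjusted p = 0.0487). *Idi1*, which isomerises isopentenyl diphosphate, was the one synthesis gene that passed in neither comparison with unstimulated. Its libraries stood at 13, 10.6 and 11.9 CPM in unstimulated DCs, 17.2, 11.97 and 16.5 CPM after LPS and 14.1, 8.55 and 9.804 CPM after IFN-β, and all 3 groups overlapped. The log2 fold changes were 0.36 ± 0.19 after LPS (adjusted p = 0.111) and -0.13 ± 0.19 after IFN-β (adjusted p = 0.601). With the letter as a block, the LPS difference of *Idi1* was 0.35 and passed (adjusted p = 0.00561). It also passed without LPS library B (0.50, adjusted p = 0.0373) or without IFN-β library A (0.36, adjusted p = 0.0443), and with no filter on low counts (0.34, adjusted p = 0.0395). Its IFN-β value passed with library-size scaling (-0.44, adjusted p = 0.0471).

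Downstream, the enzymes that build squalene and close the sterol ring fell after both stimuli. *Fdps*, farnesyl diphosphate synthase, stood at 4.15 ± 0.474, 1.07 ± 0.196 and 1.89 ± 0.277 CPM (SD, n = 3) in unstimulated, LPS and IFN-β DCs. Its log2 fold changes were -1.96 ± 0.19 and -1.13 ± 0.17, and its low level may be understated by shared sequence, as given below. *Fdft1*, squalene synthase, fell to a like level after both stimuli, from 44.3, 35.7 and 38.1 CPM to 21.5, 16.9 and 14.5 CPM with LPS and 21.5, 16.4 and 17.1 CPM with IFN-β (-1.16 ± 0.15 and -1.10 ± 0.15). *Sqle*, squalene epoxidase, a rate-limiting step, stood at 85.2, 66.3 and 74.2 CPM in unstimulated DCs, 13.98, 11.01 and 11.5 CPM after LPS and 34.03, 23.4 and 22.5 CPM after IFN-β. This was a 6.20-fold fall after LPS (-2.63 ± 0.17 SE, adjusted p = 2.17e-07) and a 2.82-fold fall after IFN-β (-1.49 ± 0.16 SE, adjusted p = 3.94e-05), with no overlap among the 3 groups. *Lss*, lanosterol synthase, fell from 39.6 ± 4.18 to 10.8 ± 1.15 and 18.3 ± 2.004 CPM.

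The genes that turn lanosterol into cholesterol also fell, over a wide range of sizes. *Dhcr7*, which reduces 7-dehydrocholesterol in the last step, showed the lowest fold change of the 35 genes. Its libraries were at 42.4, 32.7 and 30.1 CPM in unstimulated DCs, 4.03, 2.797 and 2.55 CPM after LPS and 18.1, 15.9 and 13.6 CPM after IFN-β. After LPS its expression was 11.3-fold lower (-3.50 ± 0.19 SE, adjusted p = 7.75e-08) and after IFN-β 2.21-fold lower (-1.14 ± 0.17 SE, adjusted p = 3.03e-04), and no library of one group reached the range of another. *Ebp*, the sterol isomerase, had the smallest passing falls of the synthesis genes, from 38.8, 35.6 and 36.6 CPM to 22.9, 23.2 and 22.4 CPM after LPS and 32.7, 29.3 and 31.9 CPM after IFN-β. Those were -0.70 ± 0.067 and -0.24 ± 0.066 on the log2 scale, and the second was lost without IFN-β library B (-0.19, adjusted p = 0.0627) and with no filter on low counts (-0.24, adjusted p = 0.0507). The other genes of this stretch, *Cyp51*, *Tm7sf2*, *Lbr*, *Msmo1*, *Nsdhl*, *Hsd17b7* and *Sc5d*, had log2 fold changes from -1.57 (*Sc5d*) to -1.34 (*Tm7sf2*) after LPS and from -1.11 (*Cyp51*) to -0.55 (*Lbr*) after IFN-β, all past the threshold. *Cyp51*, which demethylates lanosterol, stood at 97.5, 73.4 and 90.5 CPM in unstimulated DCs, 39.1, 24.4 and 31.7 CPM after LPS and 50.4, 33.2 and 37.3 CPM after IFN-β, and each treated library was below every unstimulated one.

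The 6 remaining genes of this stretch followed the same order of groups, with the LPS mean lowest. *Lbr* and *Tm7sf2* encode sterol C14 reductases. *Lbr* stood at 22.7, 17.9 and 20.5 CPM in unstimulated DCs, 7.501, 7.63 and 7.62 CPM after LPS and 15.6, 12.8 and 13.5 CPM after IFN-β, and *Tm7sf2* at 5.12 ± 0.898, 2.01 ± 0.238 and 2.93 ± 0.518 CPM (SD, n = 3). *Lbr* had no overlap among the 3 groups, and its difference between the stimuli was 0.88 ± 0.11 (SE, adjusted p = 6.23e-05). *Msmo1*, *Nsdhl* and *Hsd17b7* remove the methyl groups at C4. *Msmo1* stood at 74.1, 53.3 and 60.04 CPM in unstimulated DCs, 28.9, 17.5 and 23.8 CPM after LPS and 47.9, 32.5 and 30.2 CPM after IFN-β, with its IFN-β libraries above the LPS ones. *Nsdhl* fell from 30.96, 21.4 and 26.4 CPM to 10.1, 7.195 and 9.34 CPM after LPS and to 16.8, 16.8 and 16.9 CPM after IFN-β, the 3 IFN-β values lying close together. *Hsd17b7* fell from 21.5, 16.8 and 21.5 CPM to 8.88, 5.88 and 7.71 CPM and 12.04, 7.89 and 8.56 CPM, and here the LPS and IFN-β libraries overlapped. *Sc5d*, which introduces the C5 double bond, stood at 50.9, 36.7 and 44.3 CPM in unstimulated DCs, 16.9, 12.1 and 15.3 CPM after LPS and 33.5, 21.9 and 25.1 CPM after IFN-β. Its 3 groups were separate, and IFN-β exceeded LPS by 0.86 ± 0.18 (SE, adjusted p = 0.0023).

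Setting IFN-β directly against LPS, 13 of the 19 synthesis genes were higher after IFN-β (68.4%, against 25.8% of all tested genes), *Pmvk* was lower (5.26%, against 23.3%), and 5 did not pass. The groups did not overlap in 14 synthesis genes (73.7%), against 56.8% of all tested genes. The median difference was 0.66, against 0.02 over all tested genes, and by letter it was 0.70, 0.71 and 0.50. *Dhcr7* differed most, 5.12-fold higher after IFN-β (2.36 ± 0.19 SE, adjusted p = 3.62e-06), followed by *Sqle* at 1.14 ± 0.17 (SE, adjusted p = 2.30e-04) and *Mvd* at 1.07 ± 0.12 (SE, adjusted p = 3.2e-05). *Pmvk* was 1.56-fold lower after IFN-β (-0.64 ± 0.10 SE, adjusted p = 4.71e-04). Among the genes that were higher after IFN-β, the smallest differences were those of *Ebp* (0.46), *Tm7sf2* (0.54) and *Mvk* (0.65). For *Fdft1* the difference was 0.059 with a 95% interval of -0.28 to 0.40, so that the stimuli were not told apart.

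Several of these differences lay near the threshold. The *Tm7sf2* difference was lost without LPS library A (0.46) or C (0.51) or IFN-β library A (0.42) or B (0.50), and that of *Msmo1*, 0.66 in full, without LPS library B (0.48) or C (0.67) or IFN-β library A (0.42). Conversely, 4 of the 5 synthesis genes that did not pass did so with the letter as a block. These were *Hmgcs1* (0.27, adjusted p = 6.65e-04 with the block and 0.218 without), *Cyp51* (0.35, 6.12e-04 and 0.155), *Hsd17b7* (0.34, 0.0105 and 0.153) and *Idi1* (-0.50, 7.09e-04 and 0.0517). *Idi1* also passed without LPS library B (-0.64) or IFN-β library A (-0.73), by DESeq2 (-0.52, adjusted p = 0.022) and with upper-quartile factors (-0.48, adjusted p = 0.0469). With no filter on low counts all 4 passed too, *Hmgcs1* at 0.29, *Cyp51* and *Hsd17b7* at 0.37 and *Idi1* at -0.47. With library-size scaling *Hmgcs1* (0.55), *Cyp51* (0.63), *Hsd17b7* (0.62) and *Fdft1* (0.34) passed.

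**Figure D3:**
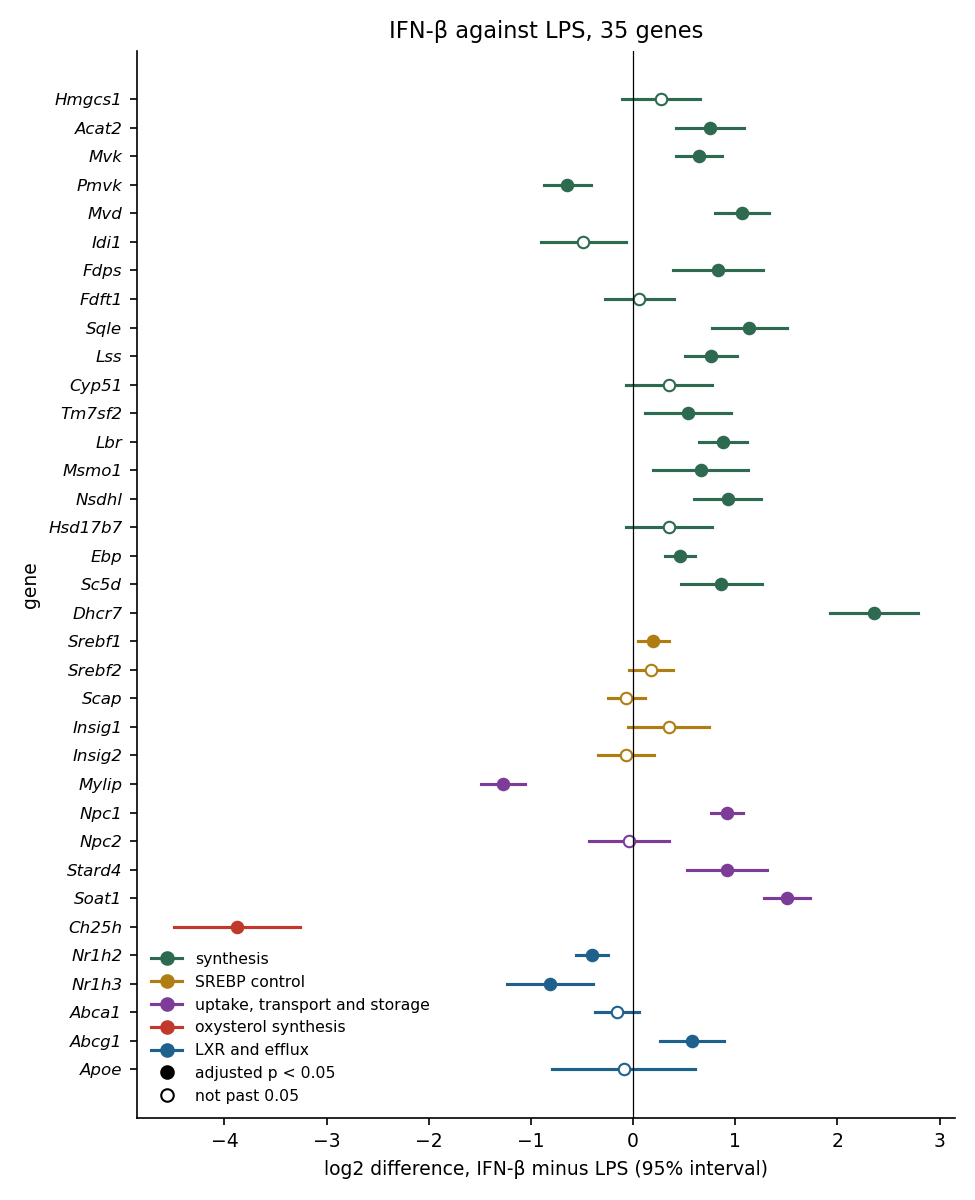
Log2 difference between IFN-β and LPS for the 35 genes, with 95% intervals from the edgeR fit; colours give the role, filled points have an adjusted p under 0.05 and open points do not. Most synthesis genes lie right of 0, that is higher after IFN-β, up to *Dhcr7* at 2.36, while *Ch25h* lies far left at -3.87.

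Most genes that control SREBP also fell after LPS. LPS lowered 4 of 5 (80%, against 35.4% of all tested genes) and IFN-β 2 of 5 (40%, against 23.3%), and none rose. With 5 genes, the IFN-β count lies close to the share of all genes. The median log2 fold changes were -0.41 and -0.27. *Srebf2*, which encodes the SREBP that acts chiefly on cholesterol synthesis, stood at 195, 161 and 179.6 CPM in unstimulated DCs, 122, 103 and 105 CPM after LPS and 135, 115 and 122 CPM after IFN-β. It fell after LPS (-0.70 ± 0.10 SE, adjusted p = 7.67e-05) and after IFN-β (-0.53 ± 0.10 SE, adjusted p = 0.00125), and both treated groups lay below the unstimulated one. *Scap*, the SREBP escort, fell by 0.41 and 0.47 on the log2 scale, from 36.4, 36.3 and 36.4 CPM to 26.8, 29.9 and 25.5 CPM with LPS and 23.7, 27.3 and 27.6 CPM with IFN-β. *Srebf1*, whose product acts mainly on fatty acid synthesis, fell after LPS by 0.32 ± 0.069 (adjusted p = 0.00174), and after IFN-β the value was -0.12 (adjusted p = 0.169), which passed with upper-quartile factors (-0.20, adjusted p = 0.0218) and library-size scaling (-0.43, adjusted p = 2.97e-04). Its libraries stood at 75.3, 67.9 and 71.7 CPM in unstimulated DCs, 56.7, 60.4 and 54.7 CPM after LPS and 68.8, 61.3 and 67.1 CPM after IFN-β. The difference between the stimuli passed (0.20, adjusted p = 0.0356), though not without LPS library A (0.18) or C (0.16) or IFN-β library A (0.16) or C (0.18), nor by DESeq2 (0.17, adjusted p = 0.0917) or with no filter on low counts (0.22, adjusted p = 0.06). For *Srebf2* the difference of 0.17 passed with the block (adjusted p = 0.0138, against 0.166) and, at 0.45, with library-size scaling.

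*Insig1*, itself an SREBP target that retains SCAP, stood at 74.4, 50.6 and 57.4 CPM in unstimulated DCs, 44.6, 32.5 and 41.3 CPM after LPS and 61.7, 41.3 and 47.6 CPM after IFN-β. Its fall passed after LPS (-0.62 ± 0.18 SE, adjusted p = 0.00947). After IFN-β the value of -0.27 did not (adjusted p = 0.229), but with the block it was -0.28 and did (adjusted p = 0.00126), as did the difference between the stimuli (0.34, adjusted p = 2.93e-04, against 0.132 without the block). With library-size scaling both passed (-0.58 and 0.62), and with no filter on low counts the difference did (0.37). *Insig2*, its paralogue, stood at 17.99, 16.3 and 14.3 CPM in unstimulated DCs, 21.7, 17.6 and 18.6 CPM after LPS and 21.2, 17.7 and 16.3 CPM after IFN-β, with overlap among the groups. It showed values of 0.26 (adjusted p = 0.0884) and 0.18 (adjusted p = 0.243), which passed with the block (0.26, adjusted p = 0.00602, and 0.18, adjusted p = 0.047).

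Genes of uptake, transport and storage split by gene and by stimulus. LPS raised *Mylip* and *Npc2* and lowered *Npc1*, *Stard4* and *Soat1*, while IFN-β raised *Mylip* and *Npc2* and lowered *Stard4* only. The 2 genes raised by each stimulus are 40% of the 5, against 32.8% of all tested genes after LPS and 23.6% after IFN-β, and the 3 and 1 lowered are 60% and 20%, against 35.4% and 23.3%. *Mylip*, whose product marks the LDL receptor for degradation, stood at 29.8, 26.4 and 23.8 CPM in unstimulated DCs, 111, 98 and 90.3 CPM after LPS and 43.5, 40.6 and 39.7 CPM after IFN-β. LPS raised it 3.74-fold (1.90 ± 0.10 SE, adjusted p = 5.05e-08) and IFN-β 1.55-fold (0.63 ± 0.10 SE, adjusted p = 4.23e-04), and the 3 groups were separate. Its promoter, shown above, holds 3 CCAAT boxes, and a relation of such boxes to the direction of change was not tested. The difference between stimuli was -1.27 ± 0.10 (SE, adjusted p = 2.16e-06). *Stard4*, a carrier of sterol between membranes, fell as most synthesis genes did, from 57.01, 47.02 and 56.3 CPM to 14.6, 9.41 and 13.3 CPM after LPS and 28.3, 19.1 and 22.8 CPM after IFN-β (-2.11 ± 0.18 and -1.19 ± 0.17). The groups were separate, and IFN-β exceeded LPS by 0.92 ± 0.18 (SE, adjusted p = 0.00141).

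*Soat1*, which esterifies cholesterol for storage in droplets, was among the clearest differences between the stimuli. It stood at 627, 564 and 516 CPM in unstimulated DCs, 211, 190.2 and 185 CPM after LPS and 616, 543 and 508 CPM after IFN-β. Expression was 2.91-fold lower after LPS (-1.54 ± 0.10 SE, adjusted p = 2.67e-07), while after IFN-β the libraries overlapped the unstimulated ones and the log2 fold change was -0.034 (95% interval -0.25 to 0.19), a value that passed at -0.34 with library-size scaling. The direct comparison gave 1.51 ± 0.10 (SE, adjusted p = 9.17e-07). *Npc1* and *Npc2*, partners in moving cholesterol out of lysosomes, went apart after LPS. *Npc1* was at 257, 238 and 218 CPM in unstimulated DCs, 136, 139.8 and 143 CPM after LPS and 269, 263 and 261 CPM after IFN-β, a fall of 0.77 ± 0.070 after LPS (adjusted p = 3.12e-06). After IFN-β its value was 0.15 (adjusted p = 0.0954), which passed without unstimulated library A (0.21, adjusted p = 0.0351). Every IFN-β library was above every unstimulated one, and 58.1% of all tested genes did not overlap in that comparison. For *Npc1*, IFN-β exceeded LPS by 0.92 ± 0.070 (SE, adjusted p = 2.27e-06). *Npc2* was at 807, 649.9 and 481 CPM in unstimulated DCs, 1489, 1309 and 1086 CPM after LPS and 1394, 1218 and 1165 CPM after IFN-β, a rise of 1.003 ± 0.18 after LPS and 0.96 ± 0.18 after IFN-β, and the treated groups overlapped each other.

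*Ch25h*, which makes 25-hydroxycholesterol, changed most of all 35 genes. It was barely expressed in unstimulated DCs, at 1.04, 2.33 and 2.62 CPM. After LPS it reached 294, 220.4 and 222 CPM and after IFN-β 13.2, 13.7 and 23.3 CPM. These were rises of 121-fold (6.92 ± 0.34 SE, adjusted p = 3.2e-08) and 8.27-fold (3.05 ± 0.31 SE, adjusted p = 2.78e-05), and the 3 groups were far apart. IFN-β was 14.7-fold below LPS (-3.87 ± 0.28 SE, adjusted p = 1.44e-06). *Ch25h* is an interferon-induced gene, and 159 of its exon bases lie opposite the transcript *Gm26902*, which had 5 to 19 counts in unstimulated, 194 to 264 in LPS and 34 to 49 in IFN-β libraries; whether reads were shared was not tested.

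The 5 LXR and efflux genes of the list rose or did not pass. Of 5 genes, LPS raised 3 (*Nr1h2*, *Nr1h3* and *Abca1*) and IFN-β raised 4 (those and *Abcg1*), and none fell. These are 60% and 80% of the 5 genes, against 32.8% and 23.6% of all tested genes. A wider list, counted further below, held 13 other tested LXR partners, targets and efflux genes, and these did not rise as a group. LPS raised 2 and lowered 5 of them (15.4% and 38.5%), and IFN-β raised 1 and lowered 5 (7.69% and 38.5%). Of all tested genes, 35.4% and 23.3% were lower. *Nr1h3*, encoding LXRα, stood at 9.15, 7.79 and 6.27 CPM in unstimulated DCs, 33.9, 32.4 and 20.9 CPM after LPS and 19.1, 16.1 and 14.3 CPM after IFN-β. The rise was 3.76-fold after LPS (1.91 ± 0.20 SE, adjusted p = 8.02e-06) and 2.14-fold after IFN-β (1.09 ± 0.20 SE, adjusted p = 0.00108), and IFN-β was below LPS (-0.82, adjusted p = 0.00462). *Nr1h2*, encoding LXRβ, rose less, from 48.1, 46.8 and 45.9 CPM to 76.8, 77.9 and 67.6 CPM and 52.8, 56.5 and 58.8 CPM (0.66 ± 0.071 and 0.26 ± 0.071), and again IFN-β was below LPS (-0.40, adjusted p = 8.27e-04).

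Of the efflux pumps, *Abca1* rose after both stimuli and *Abcg1* after IFN-β. *Abca1*, which loads cholesterol onto lipid-poor apolipoprotein, stood at 676, 551 and 557 CPM in unstimulated DCs, 947, 826 and 878 CPM after LPS and 815, 757 and 799.7 CPM after IFN-β. It rose after LPS (0.57 ± 0.10 SE, adjusted p = 3.30e-04) and after IFN-β (0.41 ± 0.10 SE, adjusted p = 0.00531). The difference between the stimuli did not pass (-0.16, 95% interval -0.37 to 0.053, adjusted p = 0.194). Every LPS library was nonetheless above every IFN-β library, and 56.8% of all tested genes did not overlap in that comparison. *Abcg1*, which exports cholesterol to mature lipoprotein, stood at 832, 682 and 545 CPM in unstimulated DCs, 847, 763 and 707 CPM after LPS and 1250.0, 1105 and 1097 CPM after IFN-β. Its IFN-β libraries were above all others (0.75 ± 0.14 SE, adjusted p = 0.00149), and the LPS value of 0.17 ± 0.14 did not pass (adjusted p = 0.302) except without unstimulated library A (0.32, adjusted p = 0.0385). IFN-β exceeded LPS by 0.58 ± 0.14 (SE, adjusted p = 0.00614).

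*Apoe*, an LXR target that carries exported cholesterol, passed in no comparison. It stood at 237, 133 and 119 CPM in unstimulated DCs, 256, 154 and 121 CPM after LPS and 218, 139 and 139 CPM after IFN-β. Library A was highest in each group, as for most synthesis genes and the neutrophil markers, and a link between these was not tested. The log2 fold changes were 0.12 ± 0.32 after LPS and 0.027 ± 0.32 after IFN-β, with 95% intervals of -0.58 to 0.82 and -0.67 to 0.73, so that changes of up to those sizes cannot be told from none.

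The direction of the smaller rises depends on the scaling. TMM factors were 1.18 to 1.26 in unstimulated, 0.783 to 0.841 in LPS and 0.977 to 1.02 in IFN-β libraries. Scaling by library size alone shifted the median of all genes by -0.581 after LPS and -0.307 after IFN-β, and the share of called genes that were higher went from 48.1% to 21.9% and from 50.3% to 22.3%. On that scale *Abca1* after LPS (-0.0097) and *Nr1h2* after IFN-β (-0.051) turned below 0, and *Abca1* after IFN-β (0.11) and *Nr1h2* after LPS (0.076) no longer passed, nor did the *Nr1h2* difference between IFN-β and LPS (-0.13, adjusted p = 0.161). *Abcg1* and *Pmvk* were lower after LPS (-0.41 and -0.42). Each of these values against unstimulated lies above the shift of all genes in its comparison. Library-size scaling called 12683 (LPS) and 9630 (IFN-β) of 16260 genes, most of them lower, so it could not test the falls in synthesis. On that scale 18 of 19 synthesis genes were lower after LPS and 19 of 19 after IFN-β.

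**Figure D4:**
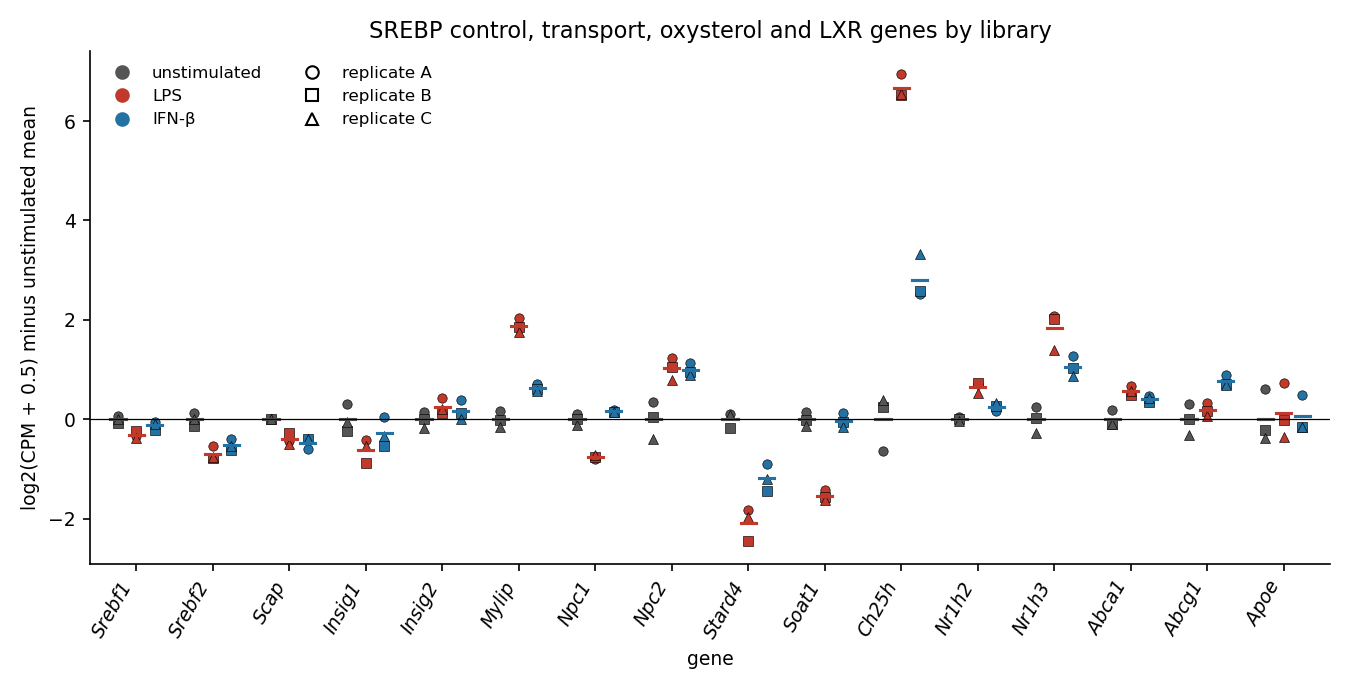
Expression of the 16 genes outside synthesis, as log2(CPM + 0.5) minus the unstimulated mean; points are libraries (circles A, squares B, triangles C), grey for unstimulated, red for LPS and blue for IFN-β, and bars are group means. *Ch25h* rises by far the most after both stimuli, *Stard4* and *Soat1* lie lowest after LPS, and the *Apoe* circles sit above the other letters in each group.

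Over the whole list, LPS changed 30 of 35 genes (85.7% against 68.2% of all tested genes), 6 higher (17.1% against 32.8%) and 24 lower (68.6% against 35.4%), and 30 did not overlap (85.7% against 72.4%). IFN-β changed 28 (80.0% against 46.9%), 7 higher (20% against 23.6%) and 21 lower (60% against 23.3%), and 29 did not overlap (82.9% against 58.1%). IFN-β differed from LPS in 23 genes (65.7% against 49.1%), 18 higher (51.4% against 25.8%) and 5 lower (14.3% against 23.3%), and 24 did not overlap (68.6% against 56.8%). With the block the changed genes numbered 32, 30 and 29.

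Relative levels of the genes were compared only per length, as CPM per kilobase of annotated exon. In unstimulated DCs the order ran from *Npc2* (119 ± 30.0, SD, n = 3), *Abcg1* (94.0 ± 19.7), *Apoe* (76.1 ± 30.2), *Soat1* (58.1 ± 5.71) and *Abca1* (57.4 ± 6.83) down to *Ch25h* (1.44 ± 0.607), *Tm7sf2* (1.16 ± 0.204) and *Fdps* (0.987 ± 0.113). Neighbours in each of these runs overlapped in their libraries. The *Fdps* level may be understated, because its exons overlap another gene, as given below, which was not tested. Among synthesis genes *Hmgcs1* (24.0 ± 3.91) and *Mvd* (23.6 ± 3.73) led. After LPS *Ch25h* reached 177 ± 30.2 CPM per kilobase and lay above *Abca1* (85.3 ± 5.85) and *Soat1* (18.9 to 21.6) in every library.

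**Figure D5:**
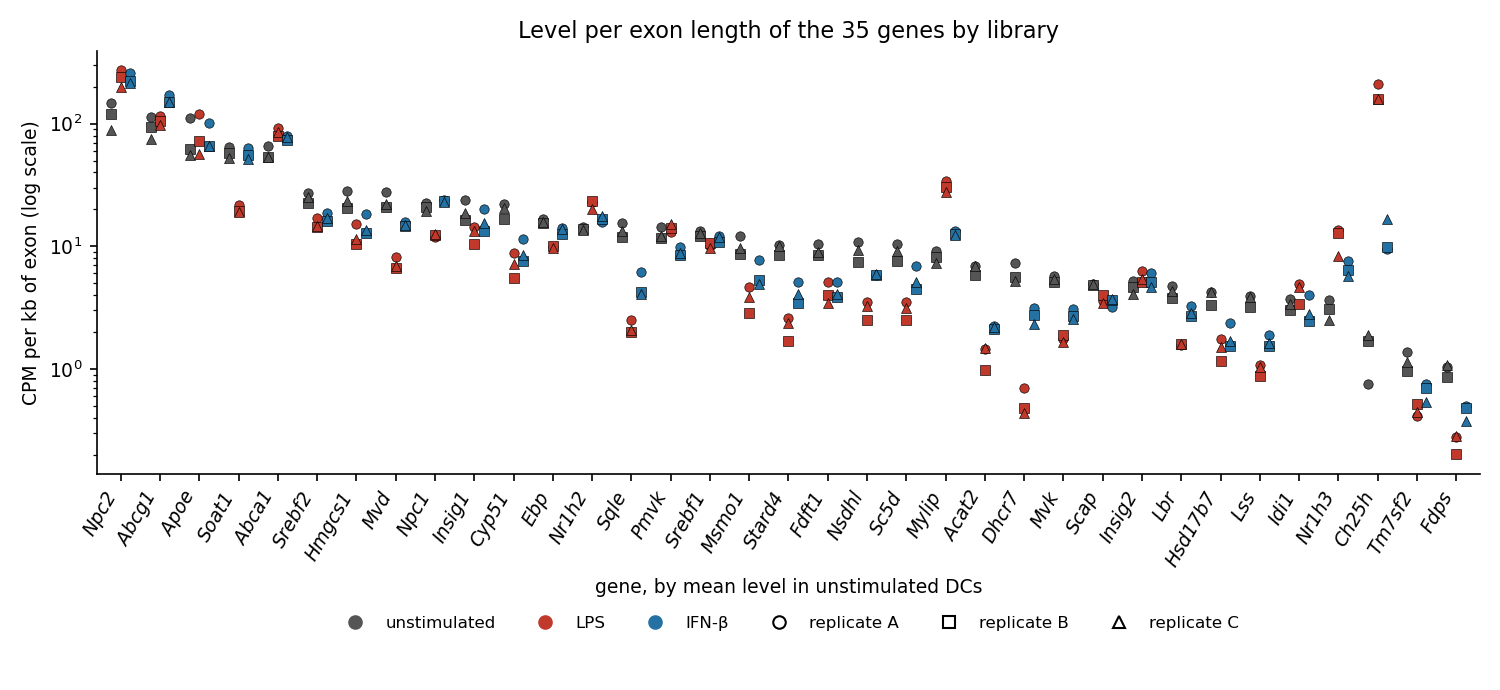
Expression of the 35 genes per kilobase of exon on a log scale, ordered by the unstimulated mean; points are libraries (circles A, squares B, triangles C), grey for unstimulated, red for LPS and blue for IFN-β. Transport and efflux genes lead from *Npc2* at 119 CPM per kilobase in unstimulated DCs, and *Ch25h* moves from the low end to 177 CPM per kilobase after LPS.

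Some counts are less certain because reads could be shared. Exons of 13 of the 35 genes overlap another gene in GENCODE M21 (GRCm38), 10 of them on the opposite strand, and the strand setting of the counting is not given in the sources used here. For *Fdft1* (chr14:63145150-63179578), 18.3% of exon bases overlap *Ctsb* on the other strand, a gene with 100949 to 225646 counts. *Tm7sf2* (chr19:6062821-6068373) shares 12.1% of its exon bases with *Vps51* on the same strand. *Fdps* shares 26.7% with *Gm43738*, also on the same strand, a gene with 0 to 2 counts in each library. Of the longest protein-coding *Fdps* transcript, 81.6% matches *Gm43738*, so most of it could be affected. The study's methods name the GeneCounts option of STAR. Whether reads falling on both genes were left out of the *Fdps* counts was not tested. Transcripts at least 95% identical elsewhere in the genome cover over 20% of the transcript for *Acat2*, *Fdft1*, *Fdps* and *Idi1*, the longest being 76.8% for *Fdps*, and reads matching both places may be missing from the counts. *Dhcr7*, *Ch25h* and *Sqle* lie at chr7:143823145-143848410, chr19:34473778-34475164 and chr15:59315077-59331192.

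Of 57 further genes in a wider list of sterol and isoprenoid genes, 54 were tested. LPS raised 15 and lowered 24 (27.8% and 44.4%, against 32.8% and 35.4% of all tested genes). IFN-β raised 14 and lowered 17 (25.9% and 31.5%, against 23.6% and 23.3%). IFN-β was higher than LPS in 16 and lower in 13 (29.6% and 24.1%, against 25.8% and 23.3%). These shares lie near those of all genes, and the medians were -0.14, -0.08 and 0.05. Among the genes with the largest changes, *Olr1*, a receptor for oxidised LDL, rose 2.02 on the log2 scale after LPS. *Stard3*, a late-endosomal sterol carrier, rose 1.66 after LPS and 1.43 after IFN-β, and *Rnf139*, a sterol-sensing ubiquitin ligase, 1.61 and 1.17. *Abca2*, an endolysosomal transporter, fell by 1.74 and 0.88, *Scarb1*, the HDL receptor, by 1.71 and 0.58, and *Tmem97*, the sigma-2 receptor, by 1.70 and 0.98. *Cyp27a1*, sterol 27-hydroxylase, rose 1.28 after IFN-β, where LPS gave 0.055 (adjusted p = 0.821), and *Fntb*, a farnesyltransferase subunit, fell by 0.73 after IFN-β. *Nceh1*, which hydrolyses cholesterol esters and so works opposite *Soat1*, stood at 148, 125 and 103 CPM in unstimulated DCs, 26.7, 21.7 and 25.4 CPM after LPS and 209, 176 and 159 CPM after IFN-β. It fell by 2.35 ± 0.15 after LPS (adjusted p = 1.86e-07) and rose 0.53 ± 0.14 after IFN-β (adjusted p = 0.00914).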

How the data were processed

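Bone-marrow DCs were profiled by rRNA-depleted total RNA-seq in 9 libraries, 3 per group, grouped by the labels. The deposited counts are whole read counts per gene, not normalized, which the authors made by trimming, aligning to mm10 with STAR and counting against GENCODE M20; the submitters' processing notes name Trim Galore 0.6.0 and STAR 2.7.8a. The strand setting of the counting is not given in the sources used here. Counts were tested with edgeR 4.0.16 (R 4.3.3): TMM scaling, filterByExpr, a quasi-likelihood F-test with 1 mean per group over all 9 libraries, and Benjamini-Hochberg adjustment over 16260 genes with a threshold of 0.05, two-sided. The SE is the log2 fold change divided by the square root of F. A 0.5 CPM pseudocount was used for plots and per-letter differences only. Depth was 33425803 to 43735199 counts per library; all 25539 genes at 0 throughout were left out, and 3214 genes carried no symbol.

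The member genes and all gene lists were chosen with earlier results of these data known. The text names every member, and from the wider pathway list the 3 genes with the largest change in each direction and comparison with unstimulated. Libraries that share a letter deviated together (correlations of 0.134 to 0.546 in all 9 pairs, and -0.48 to 0.0622 in 18 other pairs). Deviations were taken from each group's mean, which pushes the other pairs down when same-letter pairs are positive, so they are no independent baseline. The letter may therefore pair the samples, the labels giving only the letter. The main fit, which gave the calls and adjusted p-values unless stated, has no letter term, and the block is an alternative. Alternatives were DESeq2 1.42.0, library-size and upper-quartile scaling, other filters, the 2 compared groups alone, stricter thresholds, the letter as a block, and leaving out each library. The edgeR fit was tested on simulated data, with the pass criteria narrowed to well-expressed genes with large changes after a first run missed them; DESeq2 exceeded the limit set there for false calls. Overlaps and lengths used GENCODE M21 on GRCm38; similar transcripts were found with BLAST 2.17.0 at 95% identity or more over at least 100 bases. Promoters came from RefSeq.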

Additional observations from a re-analysis of the deposited data

Results flagged for a closer look

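*Nceh1*, the neutral cholesterol ester hydrolase, moved in opposite directions with the 2 stimuli. Its libraries stood at 148, 125 and 103 CPM in unstimulated DCs, 26.7, 21.7 and 25.4 CPM after LPS and 209, 176 and 159 CPM after IFN-β. The difference between IFN-β and LPS was 2.88 on the log2 scale (edgeR, adjusted p = 1.73e-07), with every LPS library below every other library. The rise after IFN-β (0.53, adjusted p = 0.00914) did not pass with library-size scaling (0.23, adjusted p = 0.119).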

How the results depend on the processing

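Of 105 member comparisons, 72 kept direction and side of the threshold under each of up to 16 alternatives. Under library-size scaling the direction turned for *Pmvk* (LPS, -0.42), *Idi1* (LPS, -0.23), *Scap* (IFN-β against LPS, 0.21), *Insig2* (LPS -0.33, IFN-β -0.12, IFN-β against LPS 0.21), *Npc1* (IFN-β, -0.15), *Npc2* (IFN-β against LPS, 0.24), *Nr1h2* (IFN-β, -0.051), *Abca1* (LPS -0.0097, IFN-β against LPS 0.12), *Abcg1* (LPS, -0.41), *Apoe* (LPS -0.46, IFN-β -0.27, IFN-β against LPS 0.19), *Stard3* (IFN-β against LPS, 0.054) and *Cyp27a1* (LPS, -0.53). With upper-quartile factors it turned for *Apoe* (IFN-β, -0.047) and *Cyp27a1* (LPS, -0.038), and *Nr1h2* after IFN-β lost its call (0.18, adjusted p = 0.056). Leaving out 1 library turned *Idi1* (IFN-β, -0.37 to 0.016), *Soat1* (IFN-β, -0.12 to 0.039), *Apoe* (LPS -0.24 to 0.48, IFN-β -0.23 to 0.40, IFN-β against LPS -0.35 to 0.26), *Cyp27a1* (LPS, -0.073 to 0.12) and, for IFN-β against LPS, *Fdft1* (-0.076 to 0.22), *Insig2* (-0.19 to 0.012) and *Npc2* (-0.16 to 0.064). The causes were not tested.

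Leaving out 1 library left 30 to 32, 27 to 29 and 20 to 23 members changed (LPS, IFN-β, IFN-β against LPS). A further minimum of 1 on the absolute log2 scale, fewer by construction, left 11 members changed by IFN-β and 6 differing between IFN-β and LPS, of them 8 and 3 synthesis genes, and 1 (LPS), 1 (IFN-β) and 0 (IFN-β against LPS) LXR and efflux genes. With library-size scaling 2 LXR and efflux genes changed after IFN-β, and IFN-β against LPS had 77.9% of called genes higher, against 52.5%. With the letter as a replicate block, 32, 30 and 29 members changed; beyond the calls given with the results and *Stard3* for IFN-β against LPS (-0.22, adjusted p = 0.0299), the block changed no other call. Depth limits chiefly the genes of lowest count, *Fdps*, *Tm7sf2* and unstimulated *Ch25h*.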
